A study of Mus musculus with 4 samples.

Results

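The miR-26 family was followed in 4 small RNA libraries prepared after RNA immunoprecipitation for Argonaute2 (AGO2) from the mouse olfactory bulb. Its members were the 5 mature miR-26a and miR-26b names of the deposited count table, taken by exact name out of 1900 names: mmu-miR-26a-5p, mmu-miR-26a-1-3p, mmu-miR-26a-2-3p, mmu-miR-26b-5p and mmu-miR-26b-3p. All mice were C57BL/6, and tissue was taken 8 weeks after injection. The GFP-AGO2 group (n = 2 libraries, replicates 1 and 3) had received an injection of LV.PGK.GFP-AGO2. The name of this vector joins AGO2 to green fluorescent protein and carries PGK, the usual short form of a phosphoglycerate kinase promoter that is active in most cell types. The Control group (n = 2 libraries, replicates 1 and 3) came from sham-injected mice, for which no vector is named. The design text of the series speaks of newborn neurons, but the source tissue in the labels is the olfactory bulb, and which cells carried the vector was not analysed here. No antibody is named in the sources used, so RNA held by the mouse's own AGO2 and background of the procedure cannot be told apart in the Control libraries. Depth was 673916 to 1006861 counts per Control library and 1858354 to 2809758 per GFP-AGO2 library, and each detected 714 to 843 names. Pairs of values for a group are given with replicate 1 first and replicate 3 second. Nothing in the labels ties each library to a mouse of its own, and the p-values therefore rest on a library-to-library spread that may be technical.

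MicroRNAs guide Argonaute proteins to messenger RNAs through a short seed near their 5′ end. Each hairpin precursor is cut to a duplex of a 5p and a 3p arm, of which Argonaute usually keeps one arm, the guide, and discards the other, the passenger. In the miR-26 family the 5p arm is the guide. The family is abundant in brain and many other tissues and is known for targeting Ezh2, which encodes a histone methyltransferase. Its hairpins lie in introns of the Ctdsp genes, which encode small phosphatases that act with the repressor REST to silence neuronal genes outside neurons. The miR-26 guides are known to target transcripts of these host genes.

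The mature sequences show why the members had to be treated as different kinds of name: the 5p arms share a seed, whereas the 3p arms do not all do so. They are given 5′ to 3′ from RefSeq (GRCm38.p6, the assembly behind mm10), with bases 2 to 8, the seed, in capitals.
miR-26a-5p: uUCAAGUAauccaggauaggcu
miR-26b-5p: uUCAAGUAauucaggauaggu
miR-26a-1-3p: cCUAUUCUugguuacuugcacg
miR-26a-2-3p: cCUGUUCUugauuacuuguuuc
miR-26b-3p: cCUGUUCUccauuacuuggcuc

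All 5 members had a RefSeq entry. Over the 21 bases that miR-26a-5p and miR-26b-5p have in common, counted from the 5′ end, they differed by C11U and C21U, and miR-26a-5p was 1 base longer, at 22. No other name with a sequence carried their seed, out of 1603 of the 1900 names for which a sequence was at hand. MiR-26a-2-3p and miR-26b-3p shared a seed that miR-26a-1-3p lacked, the only seed difference being A4G from miR-26a-1-3p to miR-26a-2-3p. The same 3p seed stood in miR-6932-3p, with 1 to 4 counts per library, and in miR-7039-3p, which was listed at 0 in the 4 libraries.

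The hairpins show which members can be traced to a host gene. In the sequences below the mature arms are in capitals, and everything else belongs to the stem ends and the loop.
Mir26a-1 (chr9:119031796-119031885, plus strand): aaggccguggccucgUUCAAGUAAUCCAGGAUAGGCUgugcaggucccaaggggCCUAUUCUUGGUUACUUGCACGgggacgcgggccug
Mir26a-2 (chr10:126995530-126995613, plus strand): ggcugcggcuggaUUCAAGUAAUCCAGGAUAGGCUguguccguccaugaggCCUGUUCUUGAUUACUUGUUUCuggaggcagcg
Mir26b (chr1:74394310-74394394, plus strand): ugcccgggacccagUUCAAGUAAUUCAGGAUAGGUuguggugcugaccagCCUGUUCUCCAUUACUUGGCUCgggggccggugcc

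In the GENCODE M21 annotation (GRCm38) Mir26a-1 lay in intron 5 of 7 of the principal Ctdspl transcript, Mir26a-2 in intron 5 of 7 of Ctdsp2 and Mir26b in intron 4 of 6 of Ctdsp1. Each was on the strand of its host, which spans chr9:118926453-119043998 for Ctdspl, chr10:126978717-126999975 for Ctdsp2 and chr1:74391509-74397285 for Ctdsp1. Mir26b sat 234 bases after the upstream exon in an intron of 564 bases, against 1543 bases in an intron of 3283 for Mir26a-1 and 1621 bases in an intron of 1946 for Mir26a-2. For Mir26a-2 another 2 annotated Ctdsp2 transcripts ran through the hairpin as exon sequence. Because Mir26a-1 and Mir26a-2 give the same 5p arm, a miR-26a-5p read cannot be assigned to Ctdspl or Ctdsp2, and only the 3p arms separate these hairpins. The host messenger RNAs were not measured in these small RNA libraries. No member overlapped another name of the table.

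Of the 5 members, 4 had enough counts for a test and 1, miR-26a-2-3p, was called changed. It rose 3.39-fold in GFP-AGO2. The guides were the most abundant members, and neither passed the test. MiR-26a-5p had a level 1.25-fold that of Control that did not pass the test, and miR-26b-5p had a log2 fold change of -0.02. MiR-26b-3p, the passenger arm that shares the seed of miR-26a-2-3p, had lower values in GFP-AGO2 but did not pass either. Over the whole table, edgeR's quasi-likelihood test called 34.4% of the 457 tested miRNAs at an adjusted p under 0.05, and 17.3% in the upward direction, against which 1 of 4 members is no excess.

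MiR-26a-5p, the main guide of the family, was one of the most abundant miRNAs in every library. It ranked 4 in both Control libraries and 3 in both GFP-AGO2 libraries by counts. It had 67943 and 43209 counts in Control, against 274723 and 171948 in GFP-AGO2. On the CPM scale, which sets counts against library size with TMM factors, it stood at 70627 and 71331 in Control and at 92455 and 84370 in GFP-AGO2. This scale corrects for depth. It corrects for a shifted composition only where most miRNAs are unchanged, which was not tested. Both GFP-AGO2 libraries lay above both Control libraries, as they did for 36.8% of the tested miRNAs. Means were 70979 ± 498 and 88412 ± 5717 CPM (SD, n = 2 each), with a log2 fold change of 0.32 (SE 0.11, 95% interval 0.04 to 0.59, edgeR adjusted p = 0.0772, unadjusted p = 0.0319). The call depended on the setting. With total counts in place of TMM the change was 0.53 and was called (edgeR adjusted p = 0.0113), and with no low-count filter it was 0.56 (edgeR adjusted p = 0.00472). Those settings also moved the median of all tested miRNAs up by 0.22 and 0.24. DESeq2 gave 0.32 with an adjusted p = 0.182. Leaving out GFP-AGO2 replicate 1 or 3, it was called at 0.27 and 0.39, in fits whose spread comes from the Control libraries alone. Without Control replicate 1 or 3 it was not called, at 0.41 and 0.32.

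MiR-26b-5p, the other guide with the same seed, was far less abundant. It had 1545 and 991 counts in Control and 5219 and 2951 in GFP-AGO2, or 1606 and 1636 CPM against 1756 and 1448 CPM. The GFP-AGO2 libraries lay on either side of the Control pair. Its log2 fold change was -0.02 (SE 0.16, edgeR adjusted p = 0.952), and the 95% interval ran from -0.41 to 0.38, so changes within those bounds could not be told from 0. The sign was positive with total counts (0.20) and with no filter (0.23), where no test passed.

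**Figure D1:**
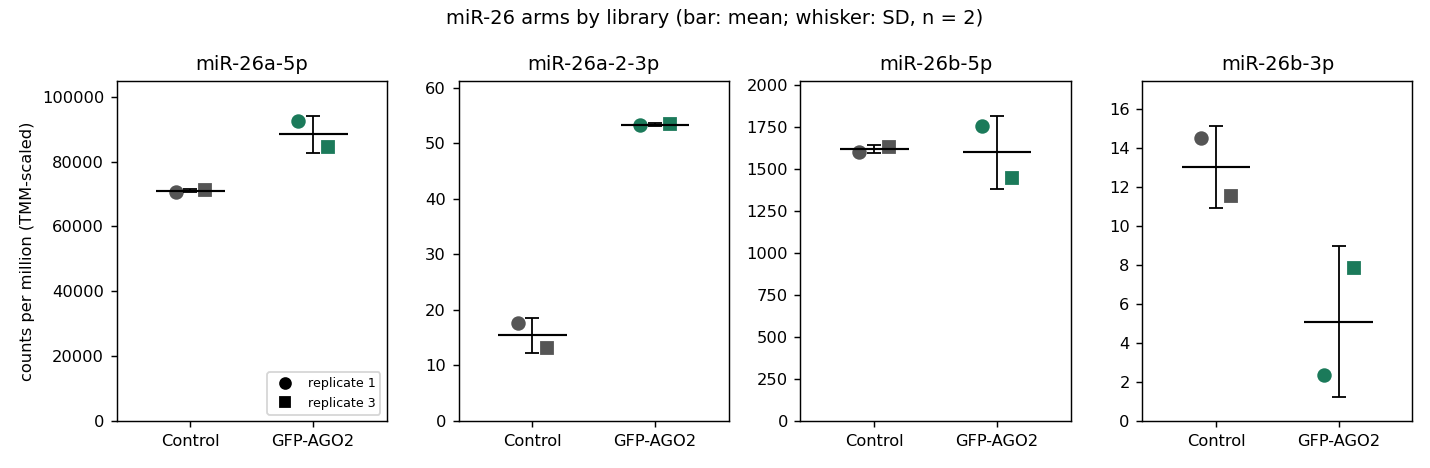
Each panel plots the TMM-scaled CPM of 1 tested miR-26 arm (y axis, from 0) for Control and GFP-AGO2 (x axis), with circles for replicate 1, squares for replicate 3, horizontal lines for the group mean and whiskers for the SD of 2 libraries. MiR-26a-2-3p lies at 53.2 and 53.5 CPM in GFP-AGO2 against 17.7 and 13.2 in Control, whereas the miR-26b-5p groups overlap.

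The balance between the guides is taken within a library and needs no scaling between libraries. There were 44.0 and 43.6 miR-26a-5p counts for each miR-26b-5p count in Control, against 52.6 and 58.3 in GFP-AGO2. The groups did not overlap, and miR-26a-5p outnumbered its relative by more in both GFP-AGO2 libraries. How often the ratios of other pairs of names separate in this way was not computed. The mean log2 ratio of miR-26b-5p over miR-26a-5p was -5.45 ± 0.0087 for Control (SD, n = 2) and -5.79 ± 0.10 for GFP-AGO2 (SD, n = 2). The difference of -0.34 exceeded the SD of either group, and the exact two-sided permutation test gave p = 0.33, the smallest value that 2 libraries against 2 allow. Apart from C11U the guides are identical up to the end of the shorter one, where C21U falls. The share of miR-26b-5p reads that stem from misread miR-26a-5p was not tested.

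As a share of all miRNA counts the family made up 6.90% (95% exact Clopper-Pearson interval 6.86 to 6.95) and 6.56% (6.50 to 6.62) of the Control libraries. It made up 9.97% (9.93 to 10.004) and 9.42% (9.38 to 9.46) of the GFP-AGO2 libraries. These intervals cover counting error only, since PCR copies are counted as separate reads. MiR-26a-5p held 97.7% to 98.2% of the family's counts in each library. The group means were 6.73% ± 0.243 and 9.69% ± 0.390 (SD, n = 2 each), a difference of 2.96 percentage points (exact two-sided permutation p = 0.33, the smallest possible). Over a total that omits the miR-183 cluster and the miR-200 family, the difference was 1.26 points, from 8.82% ± 0.361 to 10.1% ± 0.220. The groups still did not overlap, but how many other families separate in this way was not computed. In that denominator miR-26a-5p had 8.62% ± 0.353 in Control and 9.89% ± 0.204 in GFP-AGO2. MiR-26b-5p had 0.197% ± 0.00687 and 0.179% ± 0.0165 there, with the lowest Control library (0.192%) just above the highest GFP-AGO2 library (0.191%). With all counts in the denominator miR-26b-5p had 0.150% ± 0.00452 and 0.172% ± 0.0191, the opposite order.

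**Figure D2:**
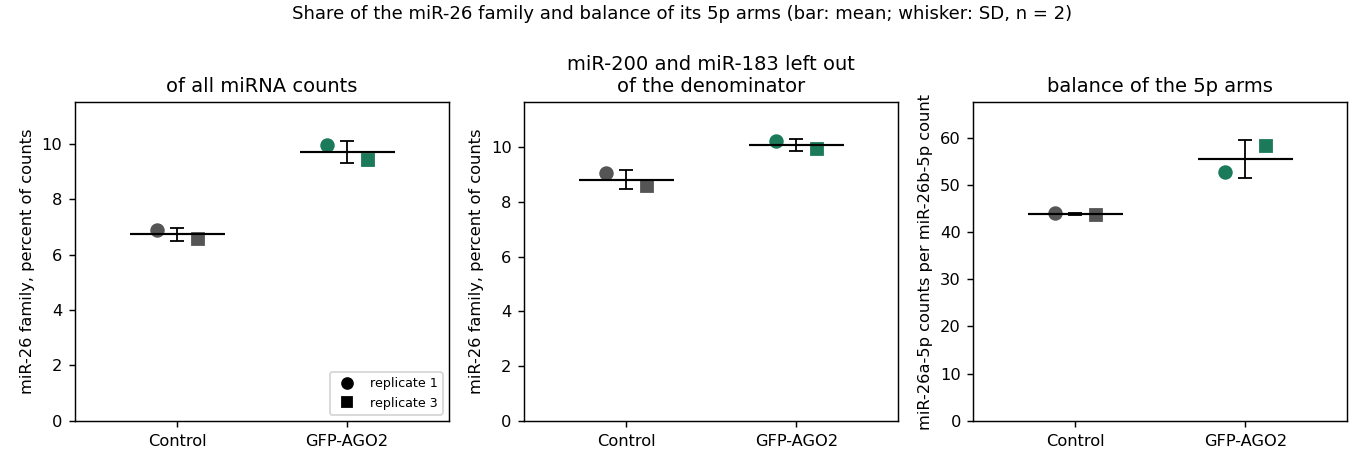
The panels plot, for Control and GFP-AGO2 (x axis), the miR-26 family as a percent of all miRNA counts, the same over a total that omits miR-200 and miR-183, and the miR-26a-5p counts per miR-26b-5p count, each from 0, with symbols for replicates 1 and 3, horizontal lines for means and whiskers for the SD (n = 2). The gap between groups in the family's share is 2.96 points in the first panel and 1.26 points in the second.

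Markers of other cell types took different shares of the counts in the groups. The 8 epithelial and sensory miRNAs, which are miR-200 and miR-183 relatives, took 23.0% to 23.4% of each Control library and 2.56% to 4.998% of each GFP-AGO2 library. Vessel markers took 0.302% to 0.424% against 0.0282% to 0.145%, with miR-126a-3p and miR-126a-5p, which overlap another name, at 0 in the 4 libraries. This share is nearly all miR-143-3p (4269 of 4272 and 2029 of 2032 counts in Control), which was not called (edgeR adjusted p = 0.0637). The 5 immune markers in the table took 0.0518% to 0.0611% against 0.00722% to 0.0214%, mostly as miR-146a-5p, with miR-142-3p, which overlaps another name, at 0. The 3 red blood cell markers in the table took 0.00298% to 0.00356% against 3.56e-05% to 0.000484%. These shares rest on 30 and 24 counts in Control against 1 and 9 in GFP-AGO2, where the count of 1 lies under the limit of 3 counts. Of the 4 neuron markers none was at 0, and they took 0.909% to 0.976% in Control and 1.02% to 1.21% in GFP-AGO2. Over the total that omits miR-200 and miR-183 these shares overlapped, at 1.195% and 1.274% against 1.244% and 1.075%. The neuron markers moved apart: miR-9-5p rose by 1.14 (log2), miR-138-5p fell by 0.82 (edgeR adjusted p = 0.0101), and miR-124-3p (-0.15) and miR-128-3p (0.18) were not called. The oligodendrocyte markers miR-219a-5p and miR-338-3p were listed at 0, and both overlap another name. Fewer cells of a type, less RNA per cell and a difference in what the immunoprecipitation recovered, background included, cannot be told apart in these libraries. With the miR-200 and miR-183 names removed before scaling and testing, an alternative chosen after seeing the data, miR-26a-5p had 0.33, miR-26b-5p 0.0028, miR-26a-2-3p 1.77 and miR-26b-3p -1.40 as log2 fold changes, against 0.32, -0.02, 1.76 and -1.40 with all names. The part of the other markers in the miR-26 values was not tested.

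Among the passenger arms, miR-26a-2-3p from the Ctdsp2 intron was the member that rose. It had 17 and 8 counts in Control, against 158 and 109 in GFP-AGO2, or 17.7 and 13.2 CPM against 53.2 and 53.5 CPM. The GFP-AGO2 libraries were nearly equal and both lay above both Control libraries, as for 36.8% of the tested miRNAs. On the CPM scale before TMM factors, the exact 95% intervals for counting error were 9.84 to 27.0 and 5.13 to 23.4 in Control. In GFP-AGO2 they were 47.8 to 65.7 and 48.2 to 70.8. These intervals did not overlap between the groups, but they hold no library-to-library spread and count PCR copies as separate reads. The log2 fold change was 1.76 (SE 0.34, 95% interval 0.90 to 2.63, edgeR adjusted p = 0.0138), higher in 2 of 2 GFP-AGO2 libraries. It was called in each of the 12 other fits that were run, each left-out library included, with changes of 1.58 to 2.11. DESeq2 gave 1.77 with an adjusted p = 0.0186. In the fit with the filter at 50 counts the arm was held through GFP-AGO2 alone, so that call adds no support. The arm passed the filter at 10 counts in all 4 libraries and so did not enter the main test through GFP-AGO2 alone. Its change lay above that of 93.2% of the tested miRNAs.

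MiR-26b-3p, the passenger arm from the Ctdsp1 intron, had 14 and 7 counts in Control and 7 and 16 in GFP-AGO2. In CPM these were 14.6 and 11.6 against 2.36 and 7.85. Both GFP-AGO2 libraries were lower than both Control libraries, as for 35.2% of the tested miRNAs, but they lay far apart. The log2 fold change was -1.40 (SE 0.78, 95% interval -3.37 to 0.57, edgeR adjusted p = 0.222). It was not called in any of the 11 other fits that held it, at -0.71 when GFP-AGO2 replicate 1 was left out and -2.43 when replicate 3 was. The arm cleared the filter in both Control libraries and in 1 GFP-AGO2 library.

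MiR-26a-1-3p, the passenger arm from the Ctdspl intron, was close to absent from the table, with 0 and 1 counts in Control and 1 and 0 in GFP-AGO2. It was not tested. A count of 0 allows up to 2.98 CPM in Control replicate 1 and up to 1.61 in GFP-AGO2 replicate 3. The 3p counts therefore came almost wholly from Mir26a-2 and Mir26b. In Control these arms were level with each other, at 1.21 and 1.14 counts of miR-26a-2-3p for each miR-26b-3p count. In GFP-AGO2 the figures were 22.6 and 6.81. MiR-26a-2-3p thus supplied 54.8% and 53.3% of the reads with their shared seed from this family in Control, and 95.8% and 87.2% in GFP-AGO2. This comparison was chosen after its values were seen and was not tested.

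**Figure D3:**
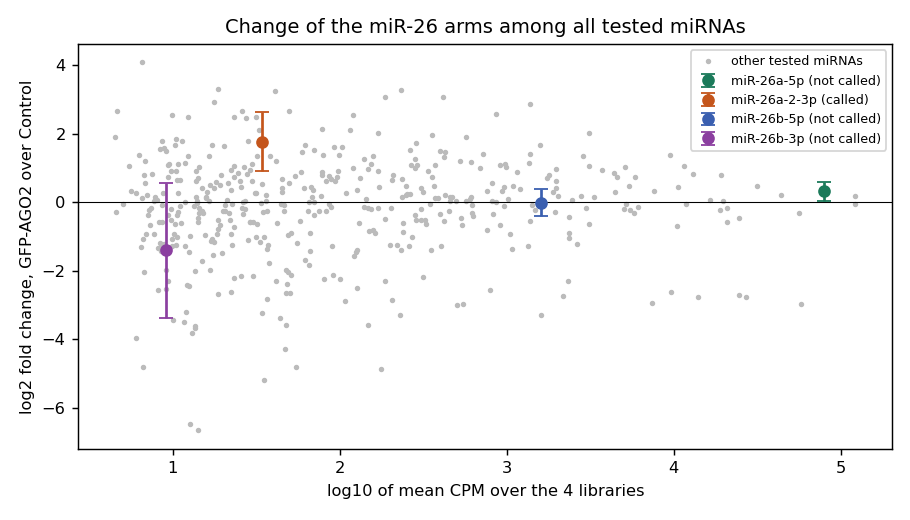
Log2 fold change of GFP-AGO2 over Control (y axis) against the log10 of the mean CPM over the 4 libraries (x axis) for the 457 tested miRNAs, in grey, with the 4 tested miR-26 arms in colour and their 95% intervals from the edgeR fit as whiskers. The interval of miR-26a-2-3p runs from 0.90 to 2.63, those of both miR-26b arms span 0, and miR-26a-5p lies just above 0 at the abundant end.

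The ratio of the 3p to the 5p arm is taken within a library. For Mir26b both arms come from the same hairpin, but for Mir26a-2 the 5p arm is pooled with that of Mir26a-1. In all libraries the miR-26 guides outnumbered their passengers by a wide margin. For every 100000 miR-26a-5p counts there were 25.0 and 18.5 miR-26a-2-3p counts in Control, against 57.5 and 63.4 in GFP-AGO2. The GFP-AGO2 values were both higher, though how many of the fitted hairpins separate in this way was not counted. The log2 ratio rose by 1.43 (SE 0.45, 95% interval 0.41 to 2.45, limma adjusted p = 0.0460 over 107 hairpins), or 2.69-fold. Since miR-26a-5p pools the Ctdspl and Ctdsp2 hairpins, this ratio can only understate the passenger share of Mir26a-2 alone. The mix of these hairpins in each group could not be measured, so a shift between the arms of Mir26a-2 itself was not tested. In this fit 26.2% of the 107 hairpins were called, 19.6% with a rising and 6.54% with a falling ratio, and Mir26a-2 ranked 20 from the top by its change. The call lay near the threshold. Its adjusted p was 0.0644 with a pseudocount of 2, 0.0598 without Control replicate 3, 0.174 when GFP-AGO2 replicate 1 was left out and 0.256 when GFP-AGO2 replicate 3 was. The change stayed between 1.23 and 1.62 in these and the other alternatives. The filter at 50 counts and the replicate block cannot move it, and it was 1.43 in both. Under that filter Mir26a-2 was held through the GFP-AGO2 counts of miR-26a-2-3p alone.

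For Mir26b there were 906 and 706 miR-26b-3p counts per 100000 miR-26b-5p counts in Control and 134 and 542 in GFP-AGO2. Here the GFP-AGO2 values were both lower, again without a count of how many fitted hairpins do so. The log2 ratio changed by -1.57 (SE 0.98, 95% interval -3.82 to 0.68, limma adjusted p = 0.302), and it was not called under any alternative. Across the fitted hairpins the mean log2 ratio of 3p to 5p had a median of -1.16. Mir26a-2, at -11.4, had the fourth lowest value and Mir26b, at -7.68, ranked 16 from the lowest.

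**Figure D4:**
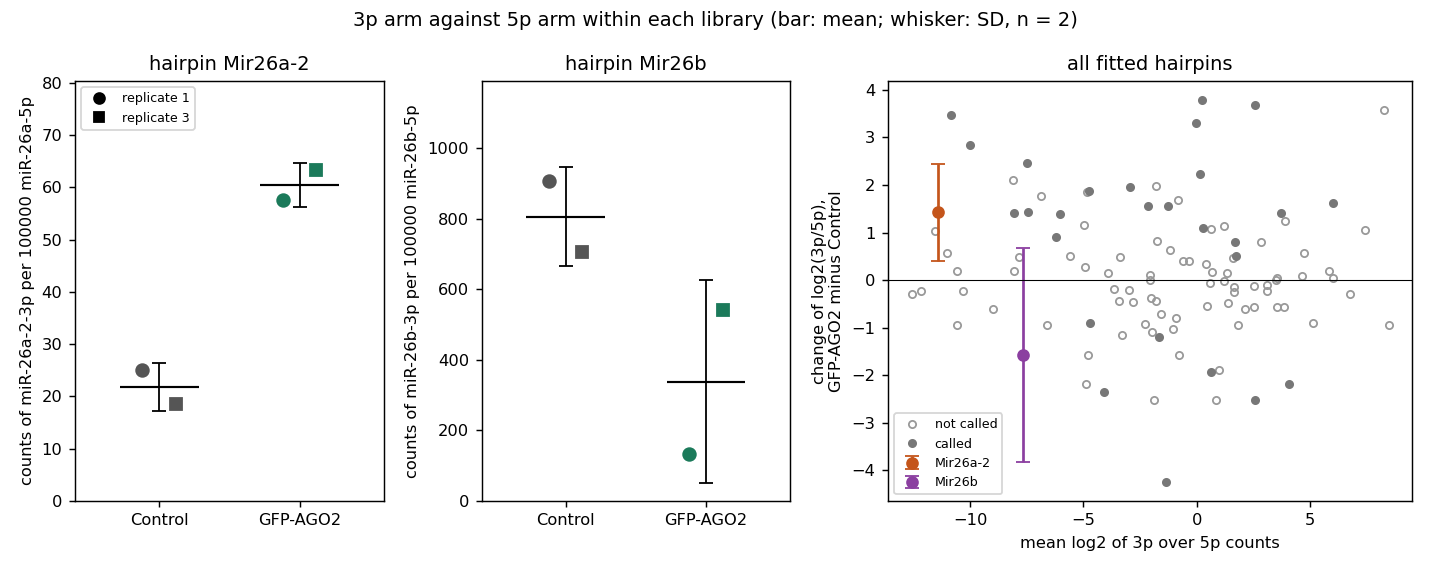
The left panels plot the counts of the 3p arm per 100000 counts of the 5p arm (y axis, from 0) for hairpins Mir26a-2 and Mir26b in Control and GFP-AGO2, with symbols for replicates 1 and 3, horizontal lines for means and whiskers for the SD (n = 2). The right panel plots the change in the log2 ratio of 3p to 5p, GFP-AGO2 minus Control, against its mean for all 107 fitted hairpins, grey points filled where called, with coloured points and 95% intervals for the miR-26 hairpins; that of Mir26a-2 lies above 0 and that of Mir26b spans 0.

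By level, miR-26a-5p stood above miR-26b-5p, and miR-26b-5p above the 3p arms, in all 4 libraries. MiR-26a-2-3p and miR-26b-3p overlapped in Control and were apart in GFP-AGO2. These levels compare mature RNAs of 21 or 22 bases, each read once over its whole length, so no length correction was made. Among all tested miRNAs miR-26a-5p was the third by mean CPM, after let-7c-5p and let-7b-5p (122645 and 121812 CPM), and was followed by miR-183-5p and let-7a-5p (57834 and 56399 CPM). The let-7 arms, guides of a widely expressed family, had ranges over the 4 libraries that did not overlap that of miR-26a-5p, whereas miR-183-5p ran from 9421 to 104085. MiR-26b-5p was number 62, between miR-139-5p and miR-96-5p above it and miR-212-5p and miR-485-3p below it, at means of 1590 to 1746 CPM, and the ranges of these neighbours all overlapped its own. These ranks use the mean over both groups: miR-96-5p averaged 2934 CPM in Control and 296 in GFP-AGO2, and miR-485-3p 766 and 2413, so neither was at the level of miR-26b-5p in either group. MiR-26b-3p was number 415, with miR-101a-5p, miR-546, miR-34a-5p and miR-7063-3p next to it at 8.83 to 9.13 CPM, all with overlapping ranges but with group means that differed, as for miR-546 (15.5 in Control and 2.65 in GFP-AGO2).

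The miRNAs with the most similar pattern were found by the root mean square difference of centred log2 CPM over the 4 libraries, a measure that ignores the level. For miR-26a-5p they were miR-181d-5p, miR-877-3p and miR-672-5p, at 0.043, 0.047 and 0.063, against a median of 0.52 over 453 names. MiR-181d-5p had 842 and 834 CPM in Control and 1140 and 959 in GFP-AGO2. For miR-26b-5p they were miR-181b-5p, miR-3068-5p and let-7b-5p, at 0.014, 0.048 and 0.052, against a median of 0.54. MiR-181b-5p had 11858 and 12094 CPM in Control and 12803 and 10463 in GFP-AGO2, the same order of libraries as miR-26b-5p. For miR-26b-3p they were miR-28a-3p, miR-210-3p and miR-34c-5p, at 0.055, 0.084 and 0.13, against a median of 0.92. These names were matched to arms that were not called, so their own lack of a call is no result. Neither likeness nor neighbours were computed for miR-26a-2-3p. These distances are a description over 4 libraries and were not tested.

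The Ctdsp phosphatases work with REST, and miR-9, miR-124, miR-132 and miR-212 are neuronal miRNAs that REST represses or that act on its complex. Of the 8 arms of these miRNAs 2 rose, 0 fell and 6 did not pass, with a median log2 fold change of -0.07, beside -0.01 over all tested miRNAs. Over all 457 tested miRNAs 17.3% were called higher and 17.1% lower, so 2 of 8 is near the background. At an unadjusted p under 0.05 there were 3, and DESeq2, the replicate block and the filter at 50 counts each called 1 of the 8 lower. MiR-124-3p, the most abundant, had 5618 and 7280 CPM in Control and 6309 and 5277 in GFP-AGO2, which overlap (log2 fold change -0.15, SE 0.18, edgeR adjusted p = 0.555). MiR-9-3p had 1514 and 2493 CPM in Control and 4048 and 4339 in GFP-AGO2 (1.07, SE 0.26, edgeR adjusted p = 0.0281). Its GFP-AGO2 values were all higher, as for 36.8% of the tested miRNAs. The other call was miR-9-5p, at 1.14 (SE 0.21), which was named after its values were seen. Without Control replicate 1 the count called higher was 1, and without GFP-AGO2 replicate 1 the count called lower was 1. The miR-9 and miR-124 arms named here have 3 genomic positions each, so their hairpin of origin is uncertain.

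Among 50 arms of other miRNAs that lie in introns of protein-coding genes, 36 were tested. Of these 8 rose, 3 fell and 25 did not pass, with a median log2 fold change of -0.13 beside -0.01 over all tested miRNAs. The shares over all tested miRNAs were 17.3% higher and 17.1% lower. At an unadjusted p under 0.05 there were 14 of 36, beside 46% of all tested miRNAs. MiR-7a-5p, from the Hnrnpk intron and another locus, was the most abundant and had 18195 and 23018 CPM in Control and 18809 and 16234 in GFP-AGO2 (-0.23, SE 0.17, edgeR adjusted p = 0.326). MiR-204-5p, from a Trpm3 intron, had 3526 and 3298 CPM in Control and 5381 and 6040 in GFP-AGO2 (0.74, SE 0.14, edgeR adjusted p = 0.0118). Its groups did not overlap, with GFP-AGO2 higher, as for 36.8% of the tested miRNAs. The falls, named after their values were seen, were miR-378a-3p (-1.29, SE 0.21), miR-152-3p (-0.87, SE 0.20) and miR-28a-5p (-1.98, SE 0.43). Upper-quartile scaling called 5 of the 36 higher and the fit without Control replicate 1 called 4, and the filter at 50 counts and the fit without GFP-AGO2 replicate 3 each called 5 lower. The change of miR-26a-2-3p, 1.76, was close to the highest of the list, 1.78.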

How the data were processed

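RNA from AGO2 immunoprecipitates of olfactory bulb was made into small RNA libraries with the NEBNext Multiplex Small RNA kit, per the labels' protocols. The deposited values are raw read counts per miRNA name, made by the authors with featureCounts v1.4.6-p1 counting primary alignments without a strand option, per the file headers. Cutadapt, STAR and mm10 are named in the submitters' processing notes, with no mismatch allowance stated there. Names with several genomic positions are 1 row each.

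Counts were tested with edgeR 4.0.16 (TMM, quasi-likelihood test, filterByExpr with a minimum count of 10, Benjamini-Hochberg over 457 names, threshold 0.05) in R 4.3.3, over the 4 libraries with group as the term. Log2 ratios of 3p to 5p counts, with 0.5 added to each count, were tested with limma 3.58.1 over 107 hairpins. DESeq2 1.42.0 was an alternative. Intervals are 95% exact, and a count of 0 was given the limit of 3 counts. The scripts were tested on simulated data. There edgeR called 43.3% of true 2-fold and 89.1% of true 4-fold changes, and 1.59% of its calls were false. The limma ratio test called 62.2% of true 4-fold changes, and 8% of its calls were false.

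Other scalings, filters, a replicate block, pseudocounts, denominators and left-out libraries were tried. Members and lists were chosen with earlier results of these data known. Names outside the family are, for miR-26a-5p, miR-26b-5p and miR-26b-3p but not miR-26a-2-3p, the 3 nearest in pattern and the 2 on either side in abundance, and also the 2 most abundant of each list. Markers are named beside their shares.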

Additional observations from a re-analysis of the deposited data

How the results depend on the processing

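MiR-26a-2-3p kept its direction and its call in all 12 alternatives (1.58 to 2.11), though it passed the filter at 50 counts through GFP-AGO2 alone. MiR-26b-3p kept its direction without a call in the 11 alternatives that held it, since the filter at 50 counts removed it. For miR-26a-5p, which was not called at 0.32, total counts gave 0.53, no filter gave 0.56, and leaving out 1 library gave 0.27 to 0.41, with a call where a GFP-AGO2 library was left out. MiR-26b-5p, at -0.02, changed sign with total counts (0.20), with no filter (0.23), without the miR-200 and miR-183 names (0.0028, chosen after seeing the data), without Control replicate 1 (0.07) and without GFP-AGO2 replicate 3 (0.13), over a leave-one-out range of -0.14 to 0.13, and was called in none. The Mir26a-2 arm ratio lost its call with a pseudocount of 2 (1.27, limma adjusted p = 0.0644), under the replicate block (1.43, limma adjusted p = 0.0685) and in 3 of the 4 leave-one-out fits (1.23 to 1.62). The cause of these changes was not tested. The Mir26b ratio stayed negative in 6 alternatives (-2.55 to -0.59), though the replicate block cannot move its change.

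The difference in the family's share was 1.26 points without miR-200 and miR-183, 7.36 points without the let-7 5p arms and 2.69 to 3.24 points with 1 library left out. For the guides' log2 ratio, leaving out 1 library gave -0.41 to -0.27. REST-linked arms called higher numbered 1 to 2 with 1 library left out, and those called lower 0 to 1, with 1 under the filter at 50 counts, the block and DESeq2. Intronic arms called higher numbered 5 with upper-quartile scaling and 4 to 11 with 1 library left out, and those called lower 5 with the filter at 50 counts and 2 to 5 with 1 library left out. Leaving out 1 library gave 61 to 94 miRNAs called higher and 59 to 99 called lower. Where it left 1 library in a group, that library was assumed to vary like the other group.

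Deviations of same-numbered libraries correlated at -0.06 over 457 names, so no shared deviation was seen. With a single pair of libraries per group, this cannot settle whether the replicate numbers pair the libraries. With the replicate block the log2 fold changes were 0.32 for miR-26a-5p, 1.78 for miR-26a-2-3p (edgeR adjusted p = 0.0210), -0.02 for miR-26b-5p and -1.57 for miR-26b-3p. Depth limits the 3p arms most, since miR-26b-3p rests on 7 to 16 counts per library and miR-26a-1-3p on 0 or 1.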
